A study of Homo sapiens with 15 samples.

Results

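The 10 genes described here were measured in all 15 libraries of an RNA sequencing study of MCF-10A, an immortalised but not tumour-forming line of human breast epithelium, in which NF1 was edited. They are 4 class 3 semaphorins (SEMA3A, SEMA3B, SEMA3C and SEMA3F), the neuropilins NRP1 and NRP2, and the plexins PLXNA1, PLXNA2, PLXNA3 and PLXNB1. All 10 are among the 60721 genes of the deposited table and all 10 passed the filter on low counts, which left 17457 genes tested. The 10 were chosen by name, with results of these data known, and the choice was made on SEMA3F being lower in every edited line than in the empty vector. Comparisons of the edited lines with the empty vector are therefore given as descriptions, without a p-value for any of the 10 genes. Calls of the 10 genes in these comparisons are likewise counted as descriptions only.

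The 5 groups had 3 libraries each, labelled as biological replicates, and were parental cells (the label gives the line as MCF10), cells with an empty vector, and NF1 mutants made with guide RNA 1, guide RNA 2, or guide RNA 1 and 2. All were untreated and grown in the same medium, which held EGF, insulin, hydrocortisone, cholera toxin and horse serum. The labels do not say whether an edited line is a clone or a pool, nor which cultures the replicates came from, so p-values measure the spread between these libraries, which may be technical. Library totals ran from 46129559 to 78976917 counts with a median of 55942785, and 3 counts, taken as the floor, correspond to 0.038 to 0.065 CPM (counts relative to the library total). NF1 had 159, 141 and 153 CPM in the parental libraries and 115, 123 and 133 CPM with the empty vector. Its level was 43.6, 47.3 and 51.3 CPM with guide 1, 27.0, 31.4 and 29.8 CPM with guide 2, and 28.9, 29.4 and 26.0 CPM with guides 1 and 2, so every edited library lay below every unedited library.

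Class 3 semaphorins are secreted guidance proteins, first known for repelling growing axons. They bind neuropilins, which have short cytoplasmic tails and pass the signal through A-type plexins, and plexins act on small GTPases and the cytoskeleton. Neuropilins also bind members of the VEGF family. SEMA3B and SEMA3F were cloned from a region of the short arm of chromosome 3 that is often lost in tumours. PLXNB1 is a receptor for the class 4 semaphorin SEMA4D.

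In GENCODE release 29 on GRCh38, SEMA3F (ENSG00000001617) lies on the forward strand at chr3:50155045-50189075. SEMA3B lies 78.5 kb further along the same strand at chr3:50267558-50277546. Chromosome 3 also carries PLXNB1, on the reverse strand at chr3:48403854-48430051, and PLXNA1, on the forward strand at chr3:126988594-127037392. SEMA3A at chr7:83955777-84492724 and SEMA3C at chr7:80742538-80922359 are both on the reverse strand of chromosome 7. NRP1 lies at chr10:33177492-33336262 on the reverse strand and NRP2 at chr2:205681990-205798133 on the forward strand. PLXNA2 is at chr1:208022242-208244320 on the reverse strand and PLXNA3 at chrX:154458281-154477779 on the forward strand. Exons of SEMA3F share 110 bases, 2.28% of their length, with the antisense gene SEMA3F-AS1, and those of NRP1 share 561 bases, 4.87%, with an antisense transcript. Whether counting used strand is not given in the sources used here, so reads in those stretches cannot be assigned to a strand.

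RefSeq promoter windows on GRCh38.p14 were matched for 8 of the 10 genes, SEMA3A and NRP1 being the exceptions. The windows of SEMA3F, PLXNA1 and PLXNA2 are shown because the comparisons below turn on these genes. Each line runs 5′ to 3′ on the strand of the gene from base -250 to base -51 before a RefSeq start. Capitals mark matches on either strand to the GC box GGGCGG, the E-box CACCTG, the AP-1 motif TGANTCA or the ETS core CCGGAA.
SEMA3F, chr3:50154808-50155007, forward strand: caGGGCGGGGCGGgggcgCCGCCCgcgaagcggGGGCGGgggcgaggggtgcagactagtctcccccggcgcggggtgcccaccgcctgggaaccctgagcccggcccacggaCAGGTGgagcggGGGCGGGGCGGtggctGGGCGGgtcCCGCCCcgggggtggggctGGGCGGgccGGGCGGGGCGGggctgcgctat
PLXNA1, chr3:126982865-126983064, forward strand: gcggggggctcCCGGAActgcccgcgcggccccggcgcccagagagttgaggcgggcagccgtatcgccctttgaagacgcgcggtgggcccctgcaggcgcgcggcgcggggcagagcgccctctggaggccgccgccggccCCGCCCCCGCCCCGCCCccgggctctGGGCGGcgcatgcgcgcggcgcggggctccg
PLXNA2, chr1:208244435-208244634, reverse strand: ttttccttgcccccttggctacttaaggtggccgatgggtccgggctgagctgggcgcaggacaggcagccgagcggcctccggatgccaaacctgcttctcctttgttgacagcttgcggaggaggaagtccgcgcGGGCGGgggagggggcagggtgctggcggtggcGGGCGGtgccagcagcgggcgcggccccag
The SEMA3F segment shown held 11 GC boxes, some of which overlap, and 1 E-box whose first base is at -137. Of 35116 RefSeq segments of the same 200 bases, 35.0% held at least 1 GC box and 0.034% held 11 or more, and 14.9% held the E-box. The GC content of the SEMA3F segment shown was 84.0% with 26 CpG, against medians of 57.5% and 8 over all segments. SEMA3F had further RefSeq segments that are not shown. That at chr3:50155074-50155273 held 2 GC boxes and that at chr3:50158769-50158968 held 0, and neither held an E-box. Their GC content was 78.0% and 56.0%, with 35 and 2 CpG. The PLXNA1 segment had 4 GC boxes and 1 ETS core, a motif found in 10.0% of segments, but its RefSeq start is at -5479 relative to the GENCODE start of the gene. The PLXNA2 segment had 2 GC boxes and none of the other motifs. AP-1 matches occurred in none of the 3 segments shown and in 5.3% of all segments. These are matches of letters and say nothing about whether a factor binds.

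A single library stood apart from its replicates. Guide 2 replicate 2 correlated with the other guide 2 libraries at 0.947 across genes (log2 CPM), while those libraries correlated with each other at 0.995. It had the lowest level of the 15 libraries for SEMA3B, SEMA3F, NRP1 and PLXNA3 and the highest for PLXNB1. Its NF1 level, 31.4 CPM, was that of an edited library. Counts of calls and the main differences below are given with and without it.

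The cells were checked against marker lists, written with earlier results known. Summed over 8 basal mammary markers the libraries ranged from 1973 to 12240 CPM, and over 4 general epithelial markers from 255 to 486 CPM. Mesenchymal markers, 8 in number, summed to 3947 to 20999 CPM and 5 luminal markers to 20.2 to 37.6 CPM. Fibroblast markers summed to 62.3 to 1105 CPM, and the range of DCN, their most abundant gene, was 55.4 to 1095 CPM. Sums for other cell types were 0.930 to 2.82 CPM (endothelial) and 13.6 to 97.7 CPM (neural, nearly all of it MAP2), with SOX10 at 0 in all 15 libraries. Of the immune markers, CD3E was at 0 in all 15 and CD14 at 3.24 to 6.95 CPM. Proliferation markers summed to 1323 to 1664 CPM with the empty vector. The sums were higher in the parental libraries (2313 to 2482), with guide 2 (2087 to 2396) and with both guides (2058 to 2220). With guide 1 they were 1279, 1306 and 2393 CPM, so replicates 1 and 2 lay below the empty-vector libraries and replicate 3 above them. The part of proliferation in the differences from the empty vector was not tested. TP63 and CDH1 were low in several edited libraries although the labels call all cells epithelial. TP63 was at 0.153, 0.203 and 0.142 CPM with guide 1 and 0.054 and 0.072 CPM in guide 2 replicates 1 and 3. CDH1 was at 0.019, 0.152 and 0.158 CPM and at 0.036 and 0.043 CPM in the same libraries. Guide 2 replicate 2 had 75.8 and 91.4 CPM of TP63 and CDH1, and both guides had means of 9.60 and 18.5 CPM. Empty-vector means were 50.9 and 72.7 CPM. Parental libraries had 37.4, 0.815 and 19.9 CPM of TP63 and 42.9, 1.79 and 37.8 CPM of CDH1. The basal sum differed within groups, being 7153, 2542 and 5805 CPM in the parental libraries and 6445, 6759 and 11697 CPM with the empty vector. It was 2297, 2588 and 1973 CPM with guide 1, 2089, 12240 and 2259 CPM with guide 2, and 4603, 4224 and 4025 CPM with both guides.

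Per kilobase of exon, SEMA3C was the most abundant of the 10 genes in each of the 15 libraries, with a median of 38.2 CPM per kb and a range of 26.3 to 48.5. NRP1 followed with a median of 23.0 CPM per kb (7.63 to 32.3), PLXNA2 with 20.7 (14.2 to 23.7) and PLXNA1 with 14.2 (10.8 to 26.2). The ranges of these 3 receptors overlap, so their order changes between libraries. SEMA3F had a median of 8.71 CPM per kb (7.85 to 14.5). Medians for NRP2, PLXNB1 and PLXNA3 were 5.51, 5.34 and 4.88 CPM per kb, with overlapping ranges. SEMA3B, at 1.88 CPM per kb, and SEMA3A, at 0.263, were the lowest, and SEMA3A rested on 35 to 202 counts per library.

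**Figure D1:**
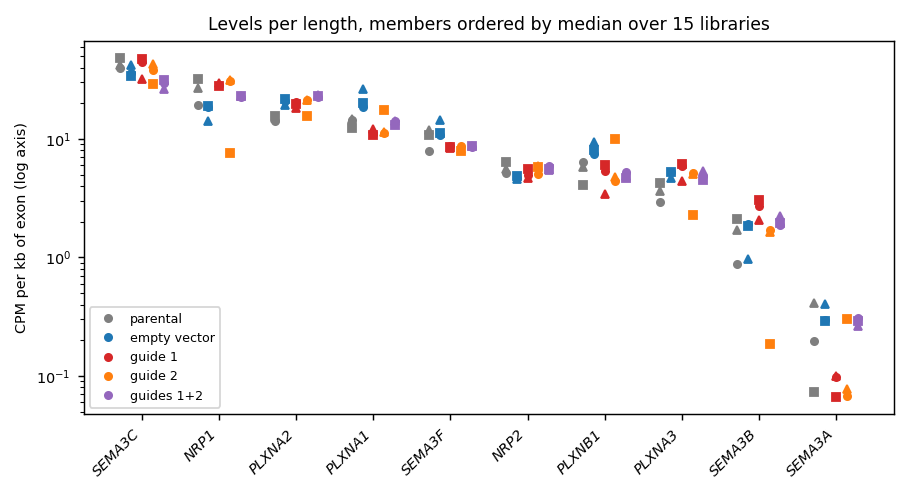
Levels of the 10 genes in CPM per kb of exon on a log axis, with a point per library, coloured by group, with circle, square and triangle for replicates 1, 2 and 3. SEMA3C is highest in every library and SEMA3B and SEMA3A are lowest, while NRP1 and SEMA3B each have an isolated low point in guide 2 replicate 2.

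Among the ligands, SEMA3F, which signals mainly through NRP2, had 51.8, 54.0 and 70.0 CPM in the empty-vector libraries. With guide 1 it had 42.2, 41.4 and 40.8 CPM, with guide 2 it had 42.2, 37.9 and 40.1 CPM, and with both guides 41.2, 41.8 and 42.0 CPM. The parental libraries had 38.0, 52.5 and 57.8 CPM. All 9 edited libraries lay below all 3 empty-vector libraries, the pattern on which the gene was selected. Parental replicate 1 lay among the edited libraries and the other parental libraries lay among those with the empty vector. In bulk RNA a lower level cannot be told apart from fewer cells that express the gene.

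The fitted log2 difference of SEMA3F from the empty vector was -0.51 with guide 1, -0.56 with guide 2 and -0.52 with both guides (SE 0.141 for each). Without empty-vector replicate 3, the highest library, these were as small as -0.36, -0.41 and -0.36. Against the parental cells, which share the edited libraries with the selecting contrast and so are not independent of it, the differences were -0.23, -0.28 and -0.24. These did not pass (adjusted p = 0.346, 0.722 and 0.628, edgeR quasi-likelihood test with Benjamini-Hochberg adjustment over all genes). Without guide 2 replicate 2 the differences from the empty vector were -0.52, -0.54 and -0.53 and those from parental cells -0.23, -0.25 and -0.23 (adjusted p = 0.242, 0.330 and 0.387). Without parental replicate 1 the latter were -0.39, -0.45 and -0.39 and still did not pass (adjusted p = 0.286, 0.232 and 0.283). With limma voom and sample weights, which gave parental replicate 1 a weight of 0.254, they were -0.38, -0.41 and -0.41. These passed (adjusted p = 0.00102, 0.00282 and 0.00215), where voom called 9228, 5682 and 3725 of all genes and edgeR 26, 9 and 34. The parental cells themselves differed from the empty vector by -0.28 (SE 0.141) in edgeR and by 0.01 with voom.

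The 9 edited libraries agreed closely in SEMA3F. Their coefficient of variation was 3.39%, with a median of 41.4 CPM, against 19.1% over the 6 unedited libraries, with a median of 53.3 CPM. For the other 9 genes the coefficient over edited libraries ran from 8.38% for NRP2 to 63.7% for SEMA3A. SEMA3F was selected on its levels in these edited libraries, so its small spread is not independent of the selection and is a description. Between edited lines the SEMA3F log2 differences were 0.05 for guide 1 against guide 2, -0.01 for both guides against guide 1 and 0.05 for both guides against guide 2, with adjusted p = 0.845, 0.990 and 0.988 (edgeR). The 95% interval of the guide 1 against guide 2 difference ran from -0.26 to 0.37.

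**Figure D2:**
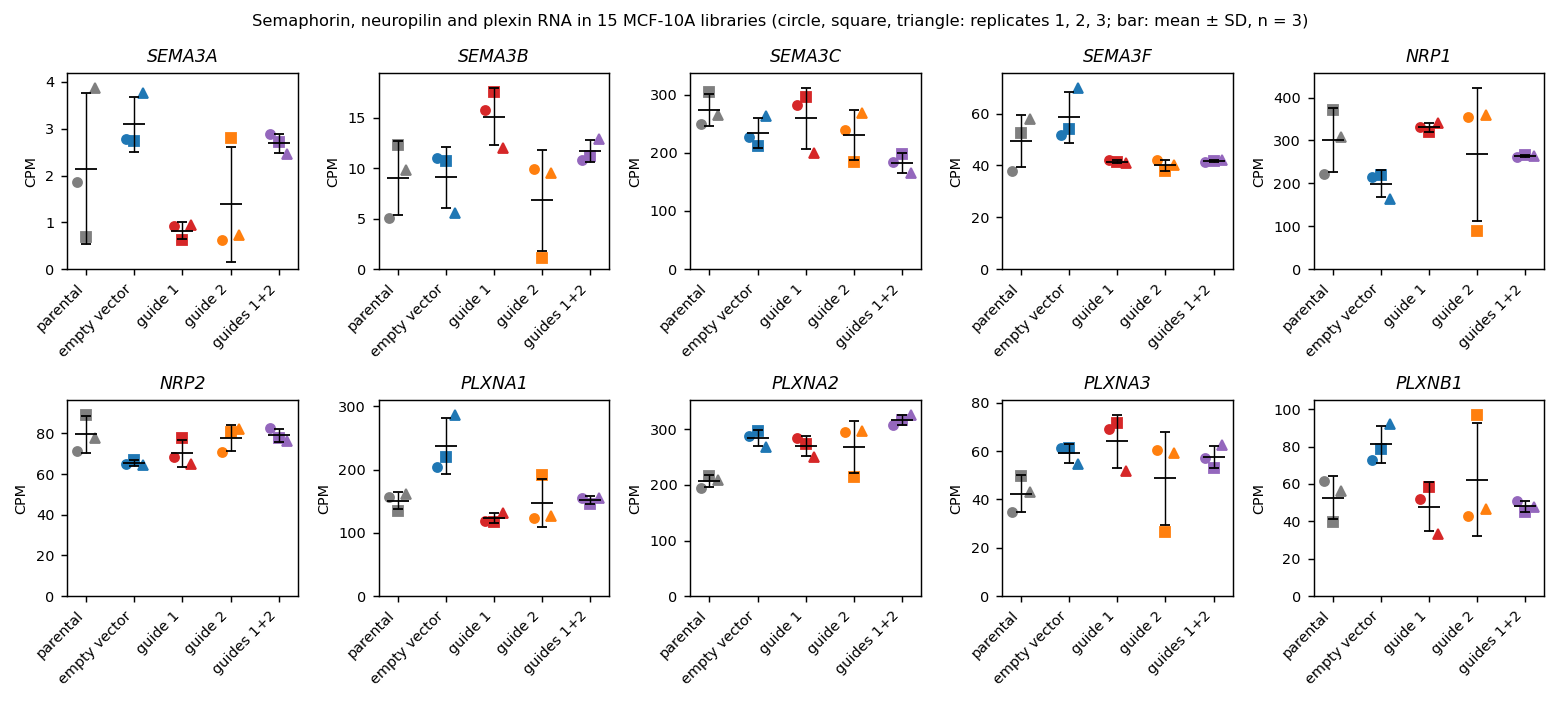
CPM of each of the 10 genes by group, with replicates 1, 2 and 3 as circle, square and triangle and a bar for the mean ± SD of 3 libraries. The SEMA3F points of the 9 edited libraries lie between 37.9 and 42.2 CPM, below the empty-vector points at 51.8 to 70.0 CPM. Guide 2 replicate 2 is the isolated square in the panels of NRP1, PLXNA1 and PLXNB1.

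SEMA3A, the founding class 3 ligand, which signals through NRP1, had 2.78, 2.73 and 3.77 CPM with the empty vector and 1.86, 0.69 and 3.87 CPM in the parental libraries. It had 0.92, 0.62 and 0.93 CPM with guide 1, 0.63, 2.81 and 0.72 CPM with guide 2, and 2.88, 2.71 and 2.47 CPM with both guides. The line made with both guides thus overlapped the empty vector, and guide 2 replicate 2 sat with them rather than with its own replicates. Guides 1 and 2 together exceeded guide 1 by 1.70 on the log2 scale (SE 0.591, adjusted p = 0.287), which did not pass. Without guide 2 replicate 2 the same difference was 1.70 (SE 0.433) and passed (adjusted p = 0.0422, edgeR).

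SEMA3C ranged from 165 CPM to 304 CPM over all libraries, with 185, 199 and 165 CPM in the line made with both guides. That line was the lowest group by mean, at 183 ± 16.8 CPM (SD, n = 3) against 273 ± 27.9 in the parental cells and 259 ± 52.4 with guide 1. Its log2 difference was -0.57 against parental (adjusted p = 0.201) and -0.52 against guide 1 (adjusted p = 0.257), so neither passed in edgeR. Without guide 2 replicate 2 these were -0.57 and -0.52 (adjusted p = 0.0506 and 0.0536). Guide 1 had 282, 296 and 199 CPM of SEMA3C. Without guide 1 replicate 3, the lowest of these, the difference from guide 1 passed (adjusted p = 0.0244, edgeR). SEMA3B ranged from 1.07 to 17.6 CPM, with the lowest value in guide 2 replicate 2 and the other guide 2 libraries at 9.88 and 9.47 CPM. No SEMA3B difference passed in edgeR against parental cells, between edited lines or between the unedited groups. Voom with sample weights called SEMA3B in guide 1 against parental, guide 1 against guide 2 and both guides against guide 1. In these comparisons voom called 9228, 3524 and 8112 of all genes, where edgeR called 26, 7 and 48.

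Among the receptors, PLXNA1, a signal-transducing partner of the neuropilins, was highest with the empty vector, at 204, 220 and 287 CPM. The parental libraries had 157, 135 and 161 CPM, guide 1 had 119, 118 and 132 CPM, and both guides had 155, 145 and 155 CPM. Guide 2 had 124, 192 and 126 CPM, with replicate 2 again apart. Every other library, parental included, lay below the 3 empty-vector libraries. The parental cells were below the empty vector by a log2 difference of -0.68 (SE 0.162, adjusted p = 0.0326, edgeR), lower in 3 of 3 libraries, and by -0.70 (adjusted p = 0.00169) without guide 2 replicate 2.

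In PLXNA1 the lines with edited NF1 differed from the empty vector by -0.96, -0.71 and -0.67 on the log2 scale with guide 1, guide 2 and both guides (SE 0.162 for each), and by -0.97, -0.96 and -0.68 without guide 2 replicate 2. Against parental cells the corresponding differences were -0.28, -0.02 and 0.02, with adjusted p = 0.329, 0.998 and 0.984 (edgeR). The 95% intervals of these ran from -0.63 to 0.08, from -0.38 to 0.34 and from -0.34 to 0.37. The parental call was lost in 8 of the 15 fits that left out 1 library, namely each parental library, each library made with both guides, and empty-vector replicates 2 and 3 (adjusted p between 0.00169 and 0.138 over all 15).

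PLXNA2, a receptor subunit of the same class, was lowest in the parental libraries, at 195, 217 and 208 CPM. The empty-vector libraries had 289, 298 and 269 CPM and those with both guides 309, 317 and 327 CPM. Guide 1 had 285, 274 and 250 CPM and guide 2 had 295, 215 and 297 CPM. All libraries except guide 2 replicate 2 lay above the parental range. PLXNA2 was lower in parental cells than with the empty vector by a log2 difference of -0.50 (SE 0.111, adjusted p = 0.0266, edgeR), and by -0.51 (adjusted p = 0.000681) without guide 2 replicate 2. It was higher with both guides than in parental cells, by 0.63 (SE 0.111, adjusted p = 0.0426), in 3 of 3 libraries, and by 0.63 (adjusted p = 0.000399) without guide 2 replicate 2.

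Against the parental cells PLXNA2 also had positive log2 differences of 0.41 with guide 1 and 0.40 with guide 2, which did not pass (adjusted p = 0.154 and 0.340). Without guide 2 replicate 2 these were 0.41 and 0.53 and passed (adjusted p = 0.00375 and 0.00216, edgeR). The call with both guides was lost in 11 of 15 fits that left out 1 library, namely any parental, empty-vector or double-guide library and guide 1 replicates 1 and 2 (adjusted p between 0.000399 and 0.199). The call between parental and empty-vector cells was lost on leaving out any of their 6 libraries (adjusted p between 0.000681 and 0.0867 over all 15 fits). Against the empty vector PLXNA2 in these lines differed by -0.09, -0.10 and 0.13 (SE 0.111 for each).

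PLXNA3 had 34.7, 49.6 and 42.9 CPM in the parental libraries and 54.6 to 61.4 CPM with the empty vector. Its highest value was 71.8 CPM with guide 1 and its lowest, 26.6 CPM, was in guide 2 replicate 2. The log2 difference of guide 1 from parental was 0.62 (SE 0.249, adjusted p = 0.217, edgeR) and passed without guide 2 replicate 2 (adjusted p = 0.0137). PLXNB1 had 73.0, 78.5 and 92.3 CPM with the empty vector, 61.7, 39.8 and 56.3 CPM in parental cells, 51.9, 58.2 and 33.2 CPM with guide 1 and 51.1, 45.2 and 47.8 CPM with both guides. Guide 2 had 42.7, 97.1 and 46.9 CPM, so replicate 2 was the only edited library that reached the empty-vector range. Parental and empty-vector cells differed in PLXNB1 by -0.66 (SE 0.285, adjusted p = 0.221), which passed without guide 2 replicate 2 (adjusted p = 0.0331).

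NRP1, the SEMA3A and VEGF co-receptor, had 215, 219 and 164 CPM with the empty vector and 223, 372 and 307 CPM in parental cells. It had 332, 320 and 340 CPM with guide 1, 262, 265 and 264 CPM with both guides, and 355, 87.9 and 360 CPM with guide 2. The guide 2 replicate 2 level was 0.246 times the mean of the other guide 2 libraries and the lowest of all 15. The other 8 edited libraries lay above the empty-vector libraries. Parental cells differed from the empty vector by 0.56 (SE 0.371, adjusted p = 0.445, edgeR), and by 0.55 (SE 0.143, adjusted p = 0.0234) without guide 2 replicate 2.

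NRP2, the receptor that prefers SEMA3F, varied least in its whole range, from 64.3 to 89.3 CPM. Its level was 65.5 ± 1.46 CPM (SD, n = 3) with the empty vector, 79.5 ± 9.02 in parental cells, 70.4 ± 6.65 with guide 1 and 78.0 ± 6.34 with guide 2, and both guides gave 82.6, 77.9 and 76.5 CPM. The parental difference from the empty vector was 0.25 on the log2 scale (SE 0.0912, adjusted p = 0.147), and 0.23 (adjusted p = 0.106) without guide 2 replicate 2. Differences of the edited lines from parental cells were -0.15, -0.01 and 0.00, with adjusted p = 0.332, 0.998 and 1.00 (edgeR).

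**Figure D3:**
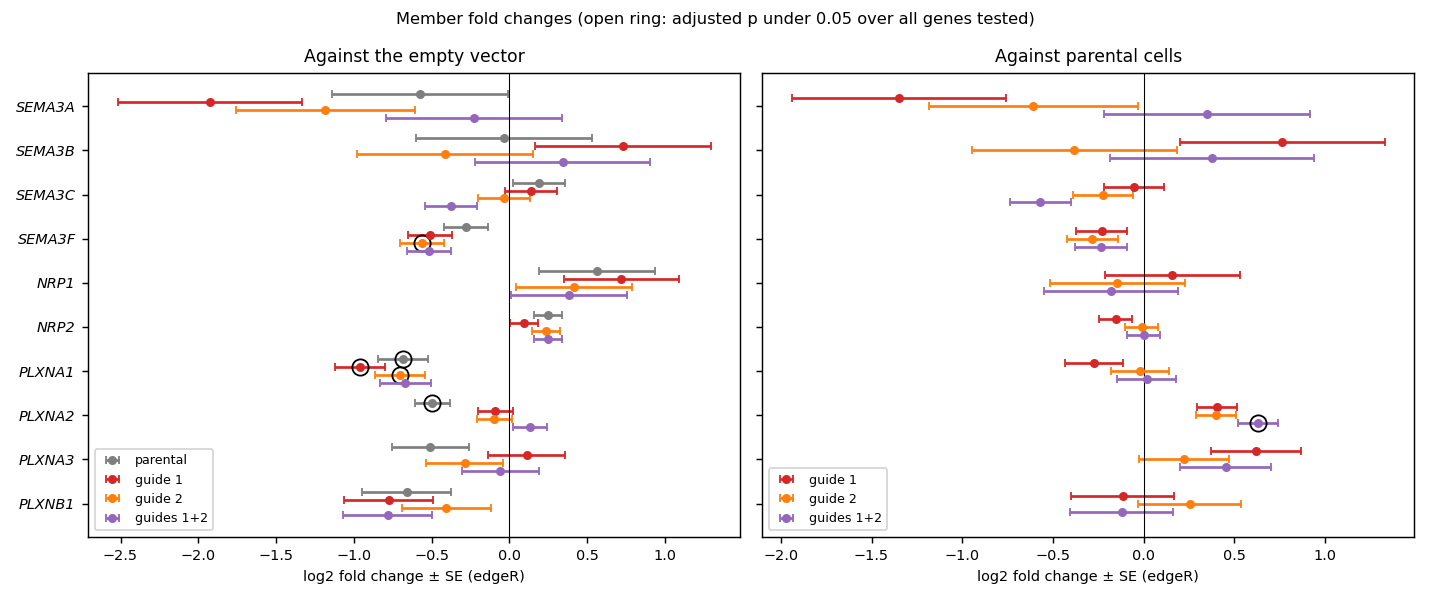
Fitted log2 fold changes (x axis) of the 10 genes against the empty vector (left) and against parental cells (right), with SE bars and an open ring where the adjusted p was under 0.05. PLXNA1 is lower than the empty vector in all 4 other groups, at -0.96 to -0.67, while SEMA3F is at -0.51 to -0.56 in the edited lines and -0.28 in parental cells. On the right the ring marks PLXNA2 with both guides.

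Counting calls at an adjusted p under 0.05, guide 1 differed from the empty vector in 1 of 10 genes (PLXNA1, lower), where 5.88% of all genes tested were called, 1.31% higher and 4.57% lower. With guide 2 there were 2 of 10 (SEMA3F and PLXNA1, both lower), where 3.94% of all genes were called, 1.20% higher and 2.73% lower. With both guides there was 0 of 10 in edgeR, where 0.962% of all genes were called, 0.269% higher and 0.693% lower. There 5 of the 10 had an unadjusted p under 0.05 and DESeq2 called 2, where these numbers over all genes were 2444 and 754. The guide 2 call of SEMA3F was lost in 11 of the 15 fits without 1 library, that of PLXNA1 in 4, and the guide 1 call of PLXNA1 in 0. Nothing is read from these counts, since the selection used this contrast. The median log2 difference of the 10 genes was 0.00, -0.35 and -0.14 with guide 1, guide 2 and both guides, beside 0.02, 0.03 and 0.00 for all genes tested.

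The parental cells differed from the empty vector in 2 of 10 genes (PLXNA1 and PLXNA2, both lower), where 4.37% of all genes were called, 1.53% higher and 2.84% lower. The comparison of edited lines with parental cells gave 0 of 10 calls with guide 1, 0 of 10 with guide 2 and 1 of 10 with both guides in edgeR, where 0.149%, 0.0516% and 0.195% of all genes were called. For guide 1, 3 of the 10 had an unadjusted p under 0.05 and DESeq2 called 1, PLXNA2. Over all genes these numbers were 3471 and 641. For guide 2 they were 1 and 0 of the 10, and 1287 and 137 over all genes. Between edited lines edgeR called 0 of 10 in each of 3 comparisons, where 0.0401% of all genes were called for guide 1 against guide 2, 0.275% for both guides against guide 1 and 0.149% for both guides against guide 2. Unadjusted p-values were under 0.05 for 0, 2 and 0 of the 10, where they were so for 2648, 2270 and 1012 of all genes. DESeq2 also called 0 in each, where it called 200, 379 and 150 of all genes. Limma voom with sample weights called 1, 8 and 4 of the 10, where it called 3524, 8112 and 2650 of all genes.

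Leaving out guide 2 replicate 2 raised the number of calls over all genes in each of the 10 comparisons, and that among the 10 genes in 7 of them. Against the empty vector, 5 of 10 were then called with guide 1 and 5 of 10 with guide 2 (SEMA3A, SEMA3F, PLXNA1 and PLXNB1 lower, NRP1 higher in each), where 18.1% and 14.5% of all genes were called. With both guides 3 of 10 were called (SEMA3F, PLXNA1 and PLXNB1, lower), where 6.70% of all genes were called. Nothing is read from these counts for the edited lines either, since the selection used the contrast with the empty vector. Parental cells then differed from the empty vector in 5 of 10 (NRP1 higher, the 4 plexins lower), where 13.9% of all genes were called. Against parental cells the counts were 2 of 10 (PLXNA2 and PLXNA3), 1 of 10 (PLXNA2) and 1 of 10 (PLXNA2), all higher, where 14.5%, 5.96% and 2.62% of all genes were called. Between edited lines the counts were 0, 1 (SEMA3A) and 0, where 0.162%, 4.55% and 1.83% of all genes were called.

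**Figure D4:**
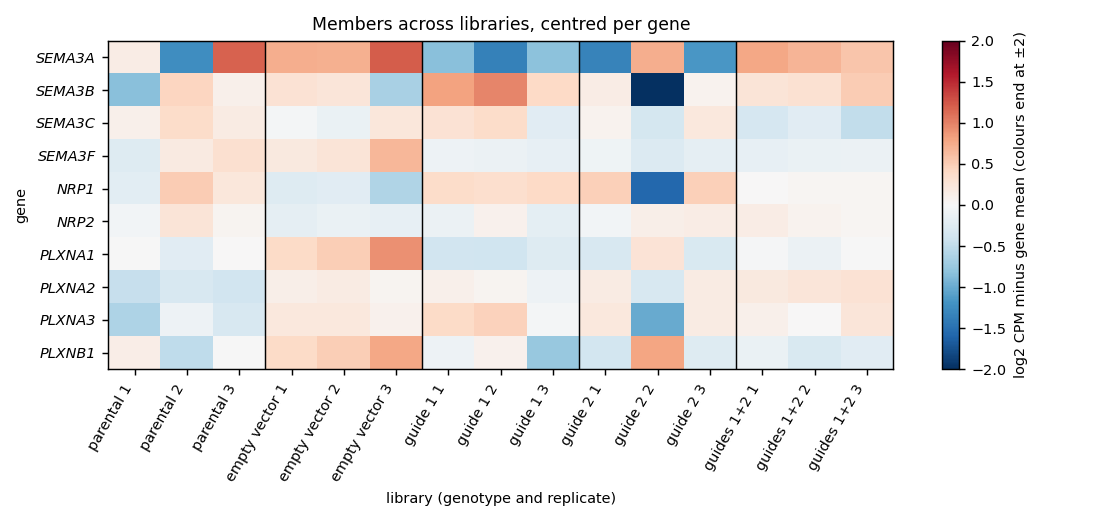
Log2 CPM of each gene minus its mean over 15 libraries, as colour, with libraries in columns by group and replicate. Guide 2 replicate 2 has the deepest blue for NRP1 and SEMA3B (the SEMA3B value lies beyond the end of the scale) and a red PLXNB1, unlike its replicates.

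Several of the 10 genes differed between libraries of a group together with the basal marker sum. NRP1 spanned only 320 to 340 CPM with guide 1 and 262 to 265 CPM with both guides, so its order there rests on small differences. In each of the 5 groups the library with the highest sum had the lowest NRP1 and the highest PLXNB1 of its group. In guide 2 that library was replicate 2, at 12240 CPM against 2089 and 2259 CPM, and in it SEMA3A was 4.15 times, PLXNB1 2.17 times and PLXNA1 1.53 times the mean of the other guide 2 libraries. Its SEMA3B (1.07 CPM) and PLXNA3 (26.6 CPM) were the lowest of the group, and its mesenchymal sum was 3947 CPM against 14240 and 15916 CPM. With the empty vector it was replicate 3, at 11697 CPM, which likewise had the lowest SEMA3B (5.60 CPM) and PLXNA3 (54.6 CPM) and the highest SEMA3A (3.77 CPM) and PLXNA1 (287 CPM). In parental cells it was replicate 1, at 7153 CPM, again with the lowest SEMA3B (5.03 CPM) and PLXNA3 (34.7 CPM), but its SEMA3A (1.86 CPM) and PLXNA1 (157 CPM) were below those of replicate 3 (3.87 and 161 CPM), whose sum was 5805 CPM.

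The pattern was not shared by every gene and group. Within guide 1, where the sum spanned 1973 to 2588 CPM, the library with the highest sum, replicate 2, had the lowest SEMA3A (0.62 CPM) and PLXNA1 (118 CPM) and the highest SEMA3B (17.6 CPM) and PLXNA3 (71.8 CPM). With both guides, where the sum spanned 4025 to 4603 CPM, replicate 1 had the highest sum, the highest SEMA3A (2.88 CPM) and the lowest SEMA3B (10.8 CPM), while its PLXNA1 and PLXNA3 lay between those of its replicates. SEMA3F went both ways, being highest with the empty vector in the library of highest sum (70.0 CPM) and lowest in the corresponding libraries of parental cells (38.0 CPM) and guide 2 (37.9 CPM). The part of the epithelial state in the differences above was not tested.

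**Figure D5:**
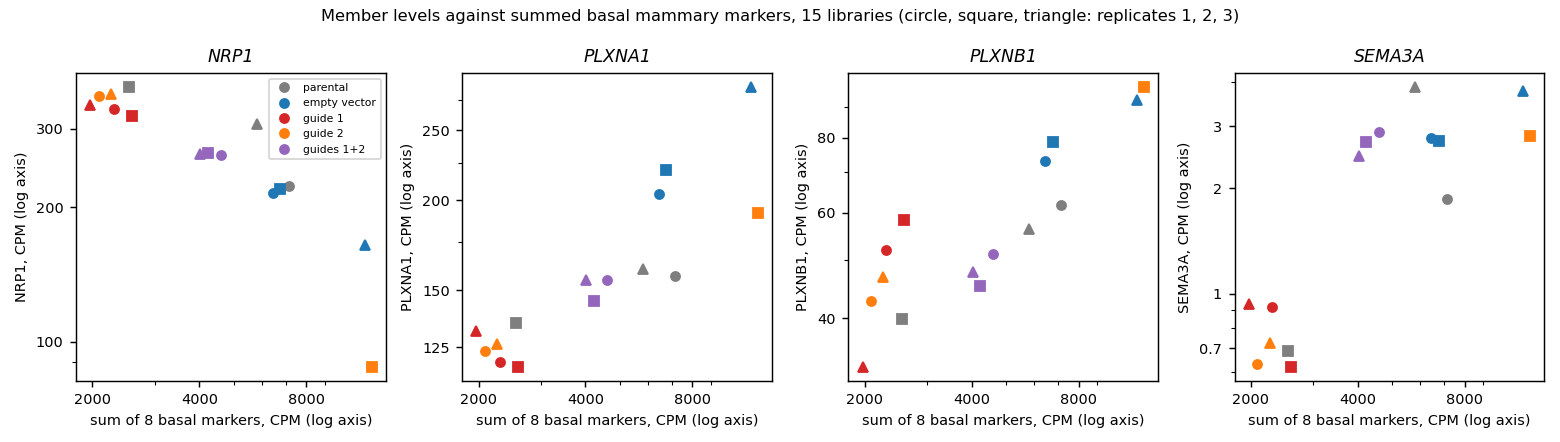
Levels of NRP1, PLXNA1, PLXNB1 and SEMA3A (y axes, CPM, log) against the sum of 8 basal markers (x axis, CPM, log), with a point per library, coloured by group, with circle, square and triangle for replicates 1, 2 and 3. NRP1 is highest, at 372 CPM, among libraries of low sum and lowest, at 87.9 CPM, at the highest sum, and the other genes tend to be higher at higher sums, with guide 2 replicate 2 at the right end away from its replicates.

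The genes whose log2 CPM was most like that of SEMA3F over the 15 libraries, out of 11631 ranked, were PDPN (Pearson r = 0.974), FAP (0.951), AFAP1L2 (0.935), TJP1 (0.912) and TNC (0.907). PDPN encodes podoplanin, FAP a cell-surface serine protease, TJP1 the tight-junction protein ZO-1 and TNC the matrix glycoprotein tenascin-C. These correlations are descriptions, since the points share 5 genotypes and their control libraries. Mean PDPN was 114 CPM with the empty vector, 91.7 CPM in parental cells, and 74.8, 75.3 and 74.6 CPM in the lines of guide 1, guide 2 and both guides. Mean TNC was 57.0 CPM with the empty vector, 23.6 CPM in parental cells and 12.5, 12.7 and 17.2 CPM in the edited lines. The genes of most opposite pattern were GDA, the guanine deaminase (r = -0.909), and EVA1C (r = -0.901). Of the other receptors and ligands, PLXNA1 was the nearest to SEMA3F, with r = 0.67 and rank 365, and NRP2 the farthest, with r = -0.31. SEMA3A was below the level needed to be ranked.

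Of the other semaphorins, 11 of 16 listed genes were tested, and SEMA3D had no count in any library. Against the empty vector 3 of 11 changed with guide 1, 2 with guide 2, 1 with both guides and 3 in parental cells, where 5.88%, 3.94%, 0.962% and 4.37% of all genes tested were called. Median log2 differences of the 11 genes were 0.08, -0.15, -0.21 and 0.02 in these comparisons, where all genes tested had medians of 0.02, 0.03, 0.00 and 0.01. SEMA7A, a membrane-anchored semaphorin, fell with guide 1 by 1.32 on the log2 scale (SE 0.264, adjusted p = 0.0148) and was also lower in parental cells. SEMA5A had a higher level in parental cells (1.22, SE 0.171, adjusted p = 0.00366), guide 1 (1.21) and guide 2 (1.15). SEMA4B was lower than with the empty vector in all 4 other groups, by -0.60 with guide 1, -0.69 with guide 2, -0.55 with both guides and -0.54 in parental cells (adjusted p = 0.00754, 0.00430, 0.0290 and 0.0153).

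Among co-receptors and neuropilin ligands, 10 of 13 listed genes were tested, and 3, 1, 1 and 2 changed in the same order of comparisons, beside the same 5.88%, 3.94%, 0.962% and 4.37% of all genes. Their median log2 differences were -0.23, -0.22, -0.19 and -0.11. L1CAM, an adhesion molecule that associates with NRP1 in the SEMA3A receptor, was lower than with the empty vector by -1.50 with guide 1, -1.50 with guide 2, -0.83 with both guides and -1.30 in parental cells (adjusted p = 0.000277, 0.000385, 0.0198 and 0.00131). KDR, the main VEGF receptor of endothelium, was higher with guide 1 (1.86, SE 0.463, adjusted p = 0.0352), at 8.45 CPM against 2.32 CPM, while of the 5 endothelial markers CDH5 and CLDN5 were at 0 in 13 and 14 of the 15 libraries, VWF was at most 0.163 CPM, PECAM1 ranged from 0.585 to 1.99 CPM and TEK from 0.238 to 0.903 CPM. NRCAM, a relative of L1CAM, was lower in parental cells (-1.47, SE 0.308, adjusted p = 0.0206). VEGFC was the remaining call, lower with guide 1.

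The remaining lists are also read against 5.88%, 3.94%, 0.962% and 4.37% of all genes called with guide 1, guide 2, both guides and in parental cells. Unadjusted edgeR p-values under 0.05 numbered 3737, 3293, 2444 and 3448 of 17457 genes there, and 3471 for guide 1 against parental. All 5 semaphorin-processing proteases were tested, and FURIN, which cleaves class 3 semaphorins, was the only call, lower in parental cells than with the empty vector by -0.72 (SE 0.163, adjusted p = 0.0274). Medians of the 5 were -0.04, -0.45, -0.63 and -0.60 for guide 1, guide 2, both guides and parental cells. For plexin signalling 27 of 31 genes were tested, with 1 call with guide 1 and 1 with guide 2, both GSK3B, the kinase that phosphorylates CRMP proteins (-0.36 and -0.33, adjusted p = 0.0138 and 0.0246). With both guides edgeR called 0 of 27 and 7 had an unadjusted p under 0.05, and parental cells had 1 call, ARHGAP35 (p190 RhoGAP), higher by 0.35 (adjusted p = 0.0404). The median log2 differences of the 27 were -0.10, -0.04, -0.05 and -0.05. Other plexins gave 0 calls among 4 tested genes in edgeR in all 10 comparisons, with 1 unadjusted p under 0.05, for guide 1 against parental. The listed neighbours of SEMA3F and SEMA3B on chromosome 3 gave 0 calls among 14 tested in edgeR in all 10 comparisons, with 2, 2, 2 and 1 unadjusted p-values under 0.05 against the empty vector in the order above and medians of 0.06, 0.07, 0.09 and 0.02. No gene of these lists passed against parental cells or between edited lines in edgeR with all 15 libraries.

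Without guide 2 replicate 2, 12 of the other semaphorins were tested and 4, 2, 1 and 3 were called against the empty vector with guide 1, guide 2, both guides and in parental cells, where 18.1%, 14.5%, 6.70% and 13.9% of all genes were called. In the same order the co-receptors and ligands had 4, 3, 3 and 3 calls of 10, the proteases 2, 2, 2 and 1 of 5, plexin signalling 8, 5, 6 and 8 of 27, other plexins 0, 0, 0 and 1 of 4, and the chromosome 3 neighbours 0, 1, 0 and 0 of 14. L1CAM was then lower by -1.51, -1.63, -0.85 and -1.32, and FURIN was called lower in all 4 comparisons. Against parental cells the calls with guide 1, guide 2 and both guides numbered 0, 0 and 1 for other semaphorins, 3, 1 and 0 for co-receptors and ligands, 2, 1 and 0 for proteases, 3, 1 and 3 for plexin signalling and 1, 0 and 0 for other plexins, where 14.5%, 5.96% and 2.62% of all genes were called. Both guides against guide 1 gave 2 calls in each list other than the plexins and the neighbours, which had 0, where 4.55% of all genes were called. Compared with guide 2, both guides had 1 call each in other semaphorins, co-receptors and ligands, and proteases. The other lists had 0, where 1.83% of all genes were called. Guide 1 against guide 2 gave 0 calls in every list, where 0.162% of all genes were called.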

How the data were processed

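Poly(A) RNA was sequenced in 15 libraries, and each library was given its group and replicate number from its own title. The authors deposited whole-number read counts per gene without pooling replicates, and a table of CPM; the CPM match values recalculated from the counts to within 4.91e-11. Trim Galore 0.6.0, STAR 2.7.8a and GRCh38 are named per the submitters' processing notes. The counting program, annotation and use of strand are not given in the sources used here.

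Counts were filtered with filterByExpr by group (17457 of 60721 genes kept), scaled by TMM and tested in edgeR 4.0.16 (R 4.3.3) by the quasi-likelihood method, with a group-means model over all 15 libraries and 10 residual degrees of freedom. P-values are two-sided, adjusted by Benjamini-Hochberg over all genes tested, and called under 0.05. Standard errors are the log2 fold change over the square root of F. Levels per kb use merged GENCODE 29 exons. Likeness to SEMA3F is Pearson's r of log2 CPM (prior count 2) over genes with a mean of at least 1.

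The 10 genes, the lists and the rule for naming were chosen with earlier results of these data known. The rule names the 10 genes, NF1, the 5 most and 2 least alike genes, and, of each list, genes called in any of 10 pairwise comparisons, the 3 largest with values. Alternatives were RLE scaling, no count filter, a replicate block, DESeq2 1.42.0, only the compared groups, voom with sample quality weights (limma 3.58.1), a minimum absolute log2 fold change of 1, and leaving out each library. The procedure was tested on simulated data. The sum of the immune marker list is not reported here. Replicates differed beyond counting noise in 24.6% to 76.8% of genes, over genes with at least 20 counts.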

Additional observations from a re-analysis of the deposited data

How the results depend on the processing

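Counts of calls among the 10 genes, summed over the comparisons of a kind, depended on the spread model and on single libraries. For the edited lines against the empty vector there were 3 calls, and 4 with RLE scaling, 6 without the count filter, 7 with DESeq2, 11 with only the compared groups, 19 with voom and sample weights, and 0 with a minimum absolute log2 fold change of 1. Leaving out single libraries gave 1 to 13, with 13 without guide 2 replicate 2. Calls over all genes moved too. With guide 1, guide 2 and both guides they were 1026, 687 and 168 in the main fit. They were 1044, 693 and 179 with RLE scaling and 975, 487 and 178 without the count filter. DESeq2 gave 1937, 1373 and 754, only the compared groups 2608, 13 and 3054, and voom 7423, 5804 and 4666. The minimum fold change left 472, 250 and 83. Without guide 2 replicate 2 they were 3235, 2581 and 1196. Counts among the 10 genes are descriptions, since the selection used this contrast. Against parental cells the main count was 1, and 2 with DESeq2, 15 with voom, 0 with the minimum fold change and 0 to 4 on leaving out single libraries. Over all genes the calls with guide 1, guide 2 and both guides were 26, 9 and 34 in the main fit. They were 641, 137 and 367 with DESeq2, 9228, 5682 and 3725 with voom and 24, 8 and 28 with the minimum fold change. Parental against empty vector gave 2, and 7 with voom, 0 with the minimum fold change and 0 to 5 on leaving out single libraries. There 762 of all genes were called in the main fit, 6343 with voom, 234 with the minimum fold change and 2484 without guide 2 replicate 2. Between edited lines the count was 0, and 3 with only the compared groups, 13 with voom and 0 to 1 on leaving out single libraries. Calls over all genes were 7 for guide 1 against guide 2, and 48 and 26 for both guides against guide 1 and guide 2. In this order they were 0, 1252 and 2 with only the compared groups and 3524, 8112 and 2650 with voom. With the replicate block the counts were 1 against the empty vector, 0 against parental cells, 0 for parental against empty vector and 0 between edited lines. Of all genes the block left 567, 375 and 69 calls against the empty vector and 9, 7 and 22 against parental cells. It left 400 for parental against empty vector and 5, 20 and 2 between edited lines. Deviations from the group mean had a mean r of -0.050 over 30 pairs of equal replicate number, against 0.028 for unequal numbers. The r of equal numbers ran from -0.75 to 0.28. Whether libraries of equal number shared a culture or run is not given and cannot be told from these means. Among the gene differences recomputed, the SEMA3F difference of parental from empty-vector cells changed sign, from -0.28 to 0.01 with voom and sample weights, and no other did. The 5 genes most like SEMA3F were the same without TMM factors and without guide 2 replicate 2. The cause of these changes was not tested, other than that the fits with fewer libraries or groups have fewer residual degrees of freedom. SEMA3A, at 35 to 202 counts, is the gene most limited by depth.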
